A study of Mus musculus with 17 samples.

Results

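Cardiac fibroblasts (CFs) sorted 6 days post-infarction (dpi) were compared with CFs sorted at 4 dpi, across all genes. The 6 libraries compared, 3 from each day, were chosen by their labelled day and are part of 17 libraries that run from 1 to 6 dpi. Both groups were Collagen1a1-GFP+ mice of the C57BL/6 strain, 8 to 10 weeks old, with a myocardial infarction made by permanent ligation of the left anterior descending coronary artery. They differed in the day of sorting only, as far as the labels say, and no uninjured heart was analysed here. In these mice the collagen I promoter drives GFP, and GFP+ cells without the endothelial protein CD31 and the leukocyte protein CD45 were sorted, so the cells are those in which that promoter was active. The 3 libraries of a day are biological replicates by the study's methods. Expression was measured by bulk MARS-seq, which primes poly-A RNA with poly-dT and reads transcripts near their 3′ ends. The values are raw read counts per gene, and totals ranged from 8336263 to 18716767 counts at 4 dpi and from 12848888 to 16698824 at 6 dpi. Of 31053 genes listed, 14030 had at least 10 counts in at least 3 libraries and were tested.

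After an infarct, CFs pass from an early state in which they secrete chemokines and cytokines and divide to one in which they lay down the matrix of the scar. The scar matrix holds collagens, which give it stiffness, elastic fibres, which let it recoil, and small proteoglycans such as fibromodulin, which bind collagen and shape its fibrils. Reparative cardiac fibroblasts (RCFs) are a subset of the activated CFs of the scar, marked by *Cthrc1*, while *Postn* is shared with other activated CFs.

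The libraries of 6 dpi did not form 1 group, and this is given first because the results rest on it. Replicates 1 and 2 differed from all others in the way levels followed the base composition of transcripts. Spearman's rho between a gene's level, centred on its mean over all libraries, and the GC content of its longest transcript was 0.54 in replicate 1 and 0.53 in replicate 2 over 10324 genes, against -0.32 to 0.17 in the other 15 libraries and 0.02 in replicate 3. Mitochondrially encoded transcripts took 0.458% and 0.425% of the counts of replicates 1 and 2, against 1.71% in replicate 3 and 1.22% to 2.04% at 4 dpi. Low mitochondrial shares occurred elsewhere too, since the range was 0.321% to 1.86% at the other days. Within 4 dpi, replicate 3 was the library apart, with Pearson's r of 0.917 and 0.925 with replicates 1 and 2, which had 0.960 with each other. All 6 libraries carried *Xist* (1005 to 3436 counts) and 1 to 10 counts of Y-linked genes, so that sex did not separate the days. The CD45 gene *Ptprc* had 0 to 2 counts and the CD31 gene *Pecam1* 12 to 24 counts at 4 dpi and 30 to 79 at 6 dpi.

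**Figure D1:**
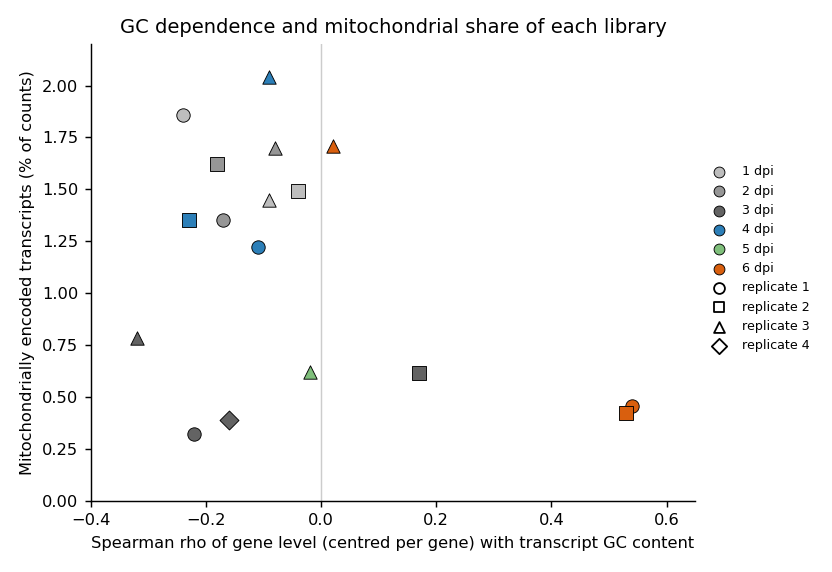
Each point is 1 of the 17 libraries, with Spearman's rho between gene level and transcript GC content on the x axis and the share of counts from mitochondrially encoded genes, in percent, on the y axis; colour gives the day and the symbol the replicate. Replicates 1 and 2 of 6 dpi lie at 0.54 and 0.53 on the x axis, and replicate 3 of 6 dpi at 0.02, among the other libraries.

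Between 4 and 6 dpi 72 genes changed, 33 higher and 39 lower at 6 dpi, which is 0.513% of the genes tested (0.235% higher and 0.278% lower; edgeR's quasi-likelihood F-test on all 17 libraries, Benjamini-Hochberg adjusted p under 0.05). The count depended on single libraries. Without 6 dpi replicate 3 it was 1401 (9.99% of the genes tested, 4.05% higher with 568 genes and 5.94% lower with 833), and without 4 dpi replicate 3 it was 223 (1.59%). Without 4 dpi replicate 1 or 2 it was 4 and 3 (0.0285% and 0.0214%), and without 6 dpi replicate 1 or 2 it was 14 and 5 (0.0998% and 0.0356%). Without 6 dpi replicates 1 and 2, which leaves 1 library at 6 dpi whose spread is taken from the other days, 2 genes passed (0.0143%), *Eln* and the amino acid transaminase *Bcat1*. All 72 genes were among the 1401, and all 72 kept their direction in each of these fits. Leaving out 1 library at a time, *Ch25h*, *Ptprn* and *Eln* passed in all 6 fits, *Matn4* in 5, *Fmod* in 4, and the other 67 genes in 1 to 3. With DESeq2's test in place of edgeR's, 807 genes passed (5.75%), all 72 among them. With edgeR on the 4 and 6 dpi libraries alone, so that the spread came from these 2 days, 15 genes passed. Of the 72 genes 11 were among them, and all 72 kept their direction. Groups of 3 did not overlap for 21.6% of the genes tested, and for 71 of the 72 called.

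The fold changes also followed GC content, with a rho of 0.54 over the same 10324 genes. The 33 genes called higher had a median GC content of 56.3% and the 39 called lower one of 46.9%, against 50.2% over all genes tested. When each library's dependence on GC content was fitted and removed, 10 genes passed (0.0713% of 14025 with a known GC content), all of them among the 72. They were *Eln*, *Fmod*, *Matn4* and *C1qtnf3*, higher at 6 dpi, and *Cxcl5*, *Ch25h*, *Ptprn*, *Lif*, *Procr* and *Ugcg*, lower at 6 dpi. The correction takes out any change that goes with GC content, whatever its source, and the part of GC content in each result was not tested further.

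**Figure D2:**
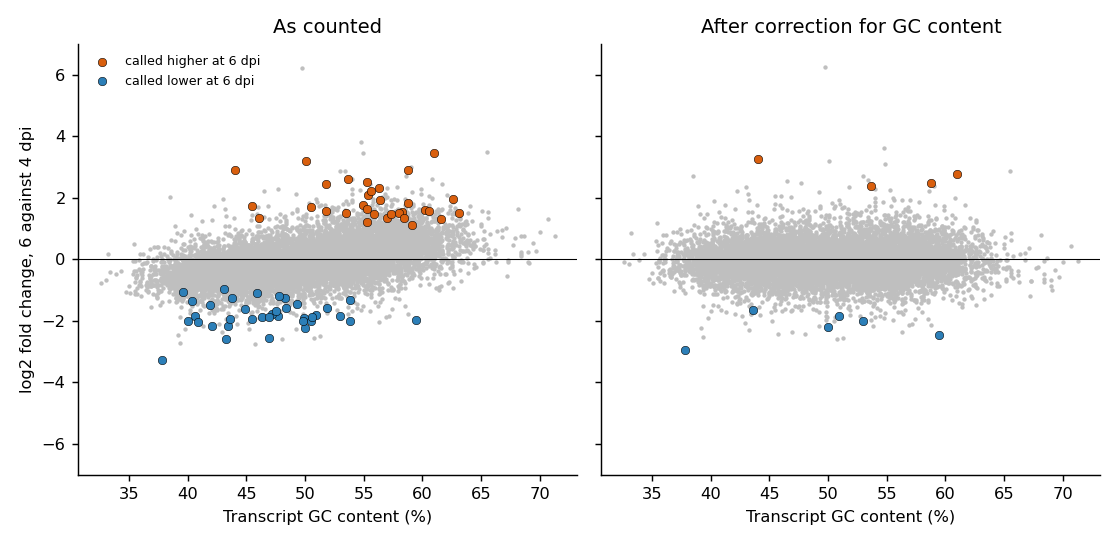
The log2 fold change of 6 against 4 dpi is plotted on the y axis against the GC content of the longest transcript, in percent, for the 10345 genes with a mean of at least 50 counts over the 6 libraries (grey), as counted on the left and after correction on the right. Coloured points are the called genes among them, 69 of the 72 on the left, and the 10 of the corrected fit on the right. Of the 72 called genes, 29 of the 33 higher and 9 of the 39 lower ones lie above the median GC content of all genes tested.

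Signals that CFs send to leukocytes were among what fell. Of 25 chemokines and myeloid growth factors tested, *Cxcl5* and *Ccl9* fell and none rose, beside 0.278% of all genes called lower, and the median log2 fold change of the list was -1.23, against -0.02 over all genes. *Cxcl5*, which attracts neutrophils, stood at 6.72, 6.52 and 5.45 log2 CPM (read counts scaled by library size) in the 4 dpi libraries and at 2.66, 1.79 and 3.95 in the 6 dpi libraries. Its 6 dpi level was lowest in replicate 2 and highest in replicate 3, and the days did not overlap. The log2 fold change was -3.28 ± 0.51 (n = 3 and 3), with an edgeR adjusted p of 0.0080. Values after ± are the standard error (SE) of the model, whose spread was estimated over all 17 libraries. *Ccl9*, which attracts monocytes, went from 5.83, 5.33 and 4.90 to 2.65, 3.30 and 3.60, a fall of 2.18 ± 0.44 on the log2 scale (edgeR adjusted p = 0.037). The monocyte attractant *Ccl2* had 9.07, 9.04 and 6.94 at 4 dpi and 6.45, 5.96 and 7.67 at 6 dpi, and its relative *Ccl7* had 9.06, 8.66 and 5.62 and then 5.28, 5.30 and 6.83. In both genes the replicates numbered 3 lay between the other libraries of the 2 days, the days overlapped, and neither gene passed (log2 fold changes of -1.75 ± 0.45 and -2.36 ± 0.57, edgeR adjusted p of 0.067 and 0.059).

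Of 25 genes of the IL-6 and NF-kB response, *Lif*, *Ptgs2* and *Ptx3* fell, beside 0.278% of all genes called lower. None of the 25 rose, and the median was -0.67, against -0.02 over all genes. *Lif*, a cytokine of the IL-6 family, stood at 4.32, 4.62 and 3.62 at 4 dpi and at 2.92, 2.02 and 2.18 at 6 dpi, without overlap (log2 fold change -1.84 ± 0.32, edgeR adjusted p = 0.021). *Ptgs2*, the inducible cyclooxygenase that starts prostaglandin synthesis, went from 6.04, 6.27 and 5.52 to 3.47, 2.83 and 4.86. It was higher in 6 dpi replicate 3 than in replicates 1 and 2, and still below every 4 dpi library (-2.01 ± 0.40, edgeR adjusted p = 0.037). *Ptx3*, a soluble pentraxin that binds microbes and matrix, went from 6.82, 5.82 and 4.65 to 3.43, 3.61 and 4.70, so that replicate 3 of 6 dpi reached replicate 3 of 4 dpi (-2.0 ± 0.45, edgeR adjusted p = 0.050 when rounded, and under the threshold). *Il6* itself had 8.66, 8.12 and 5.53 at 4 dpi and 4.16, 3.41 and 6.36 at 6 dpi. The libraries numbered 3 of both days lay between the rest, the days overlapped, and it did not pass (-2.73 ± 0.76, edgeR adjusted p = 0.084).

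*Ch25h*, which turns cholesterol into the immune oxysterol 25-hydroxycholesterol (ENSMUSG00000050370, chromosome 19, 34473778 to 34475164, GRCm38, minus strand), stood at 5.43, 5.72 and 5.42 at 4 dpi and at 3.53, 2.80 and 3.53 at 6 dpi, so that the libraries of each day lay close together, replicate 3 included. The log2 fold change was -2.22 ± 0.27 (edgeR adjusted p = 0.00075). *Ptprn*, a phosphatase-like protein of secretory vesicles, went from 5.11, 5.03 and 4.81 to 3.31, 2.76 and 2.97 (-1.98 ± 0.27, edgeR adjusted p = 0.0022). Its transcript has a GC content of 59.5%, high for a gene that fell, and its fall was -2.47 after GC correction. *Procr*, the endothelial protein C receptor, and *Ugcg*, which makes the first glycosphingolipid, fell by 1.81 ± 0.36 and 1.95 ± 0.37 on the log2 scale (edgeR adjusted p of 0.037 and 0.036). The hyaluronan synthase *Has2* fell by 1.84 ± 0.38 on that scale and *Aldh1a3*, which makes retinoic acid, by 1.91 ± 0.43 (edgeR adjusted p of 0.041 and 0.049), and both were highest at 6 dpi in replicate 3.

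Some genes of the cell cycle were also among those that fell. Of 32 genes of DNA replication, *Mcm4*, *Mcm5* and *Fen1* fell and none rose, 31 had a fold change below 0 and the median was -0.99. Of 41 genes of mitosis and cytokinesis, *Ccnb2* fell and none rose, 39 were below 0 and the median was -1.14. Of all genes tested 49.0% had a fold change above 0 and 0.278% were called lower. The promoters of *Mcm5*, *Pclaf* and *Ccnb2*, from 250 bases before the transcription start to 50 after it, are shown to place them beside the genes that fell together, with matches in capitals to letters of the E2F site (TTTCCCGC or TTTGGCGC, both found here on the reverse strand) in the first 2 and of the cell cycle homology region (TTTGAA) in the last, each searched on both strands. They are RefSeq sequences on GRCm38.p6, at chr8:75109259-75109558 (plus strand), chr9:65890073-65890372 (plus strand) and chr9:70421505-70421804 (minus strand).
*Mcm5*: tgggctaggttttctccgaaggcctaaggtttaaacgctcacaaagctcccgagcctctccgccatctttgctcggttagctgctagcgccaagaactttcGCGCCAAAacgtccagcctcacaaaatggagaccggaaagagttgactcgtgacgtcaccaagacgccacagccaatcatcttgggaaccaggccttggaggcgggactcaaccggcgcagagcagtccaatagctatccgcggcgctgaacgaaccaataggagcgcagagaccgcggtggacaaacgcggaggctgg
*Pclaf*: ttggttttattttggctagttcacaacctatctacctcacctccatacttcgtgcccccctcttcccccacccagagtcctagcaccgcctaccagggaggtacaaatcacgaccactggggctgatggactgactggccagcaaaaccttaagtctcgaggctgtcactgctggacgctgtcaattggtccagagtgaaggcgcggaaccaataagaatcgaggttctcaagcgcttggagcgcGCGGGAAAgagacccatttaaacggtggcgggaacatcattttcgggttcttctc
*Ccnb2*: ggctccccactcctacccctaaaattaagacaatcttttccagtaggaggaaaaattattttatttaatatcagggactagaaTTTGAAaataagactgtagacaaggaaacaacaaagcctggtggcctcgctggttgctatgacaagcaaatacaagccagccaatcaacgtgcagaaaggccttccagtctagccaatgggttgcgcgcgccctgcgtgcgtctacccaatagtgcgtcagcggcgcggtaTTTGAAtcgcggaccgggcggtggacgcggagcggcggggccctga
Of the 39 genes called lower, 32 had a promoter in the table. The E2F letters stood in 2 of these (*Mcm5* and *Pclaf*), in 1.56% of all 32851 promoter windows, in 3.32% of the 10700 tested genes with a window and in 8 of the 62 replication and mitosis genes matched. The homology region letters stood in 10 of the 32, in 17.9% of all windows, in 14.4% of the tested genes and in 31 of the 62. Of these 10 only *Ccnb2* and *Fen1* were in the replication and mitosis lists, and *Spp1* and *Ccl9* were among the others. A match is a description of letters and not of binding.

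*Mcm5*, a subunit of the replicative helicase, stood at 5.16, 5.55 and 4.31 at 4 dpi and at 3.38, 3.16 and 3.93 at 6 dpi (log2 fold change -1.58 ± 0.35, edgeR adjusted p = 0.049). *Pclaf*, which binds the replication clamp PCNA and was, like *Gmnn* and *Skp2*, in neither list, went from 6.30, 6.02 and 4.81 to 3.36, 3.68 and 4.22 (-2.05 ± 0.44, edgeR adjusted p = 0.045). The B-type cyclin *Ccnb2* went from 6.37, 6.10 and 5.15 to 4.76, 4.19 and 4.54 (-1.46 ± 0.31, edgeR adjusted p = 0.042). In each of these genes 4 dpi replicate 3 was the lowest of its day and the days did not overlap. *Mcm4*, *Fen1*, which trims flaps on the lagging strand, and *Gmnn*, the inhibitor of replication licensing, fell by 1.95 ± 0.38, 2.0 ± 0.42 and 2.0 ± 0.42 on the log2 scale (edgeR adjusted p of 0.037, 0.042 and 0.042). *Skp2*, the ligase subunit that marks the cell cycle inhibitor p27 for destruction, fell by 1.61 ± 0.34 on that scale (edgeR adjusted p = 0.044). *Ccnb1*, the main mitotic cyclin, had 3.56, 3.72 and 3.38 at 4 dpi and 1.41, -0.14 and 2.32 at 6 dpi, without overlap, and did not pass (-2.10 ± 0.50, edgeR adjusted p = 0.057). None of the cell cycle genes passed after GC correction, where the medians of the replication and mitosis lists were -1.05 and -0.91. In bulk libraries a lower level cannot be split into fewer dividing cells and less RNA in each.

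Ribosome biogenesis had no gene called. Of its 27 genes 24 were below 0 and the median was -0.52. *Npm1*, the nucleolar chaperone, had 9.18, 9.30 and 8.81 at 4 dpi and 6.71, 6.23 and 8.54 at 6 dpi, so that replicate 3 lay near 4 dpi and far above replicates 1 and 2 (-1.59 ± 0.46, edgeR adjusted p = 0.089). No gene was called either in endoplasmic reticulum folding (17 genes, median -0.55) or cholesterol synthesis (21 genes, median -0.61). *Spp1*, osteopontin, a secreted phosphoprotein counted among the matricellular proteins and the mineralization regulators, fell from 7.05, 7.42 and 5.74 to 3.97, 3.39 and 5.08 (-2.58 ± 0.57, edgeR adjusted p = 0.048). The reductase family member *Steap1* and the amino acid transporter *Slc38a4* fell by 2.57 ± 0.54 and 2.18 ± 0.35 on the log2 scale (edgeR adjusted p of 0.042 and 0.0093).

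**Figure D3:**
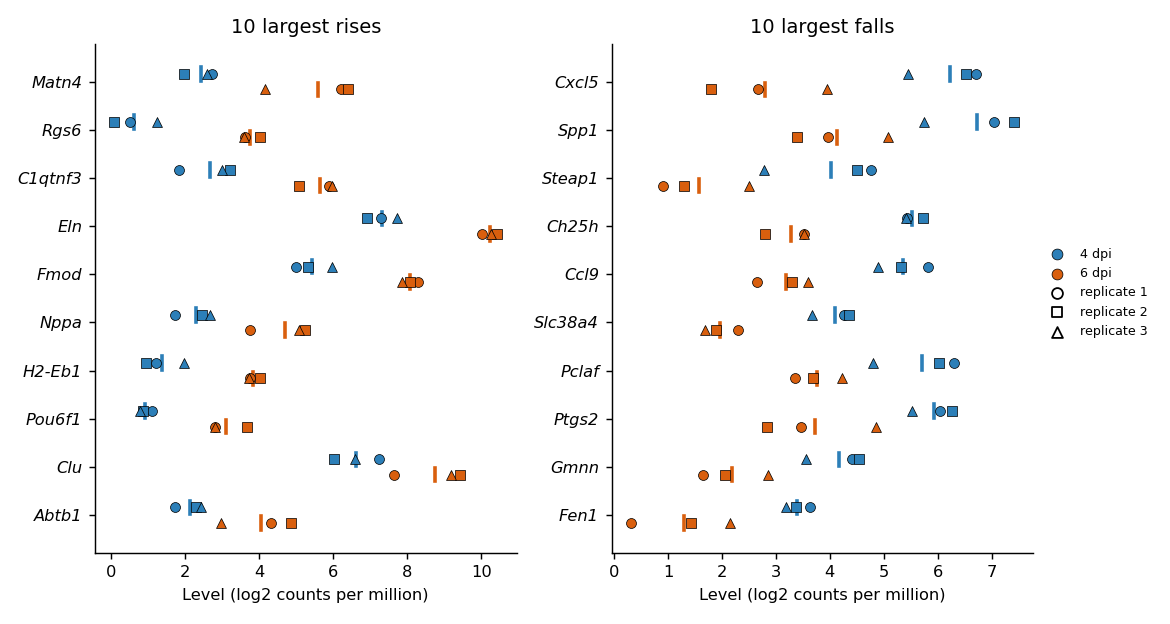
Levels in log2 CPM (x axis) of 20 called genes, those of the 10 strongest rises and 10 strongest falls whose days did not overlap and whose counts averaged 50 or more, 1 symbol per library and a bar at each day's mean. The days are separate for every gene by construction, the 6 dpi libraries of *Eln* lie within 10.01 to 10.43, and those of *Cxcl5* spread from 1.79 to 3.95.

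What rose from 4 to 6 dpi included matrix genes, none of them a fibrillar collagen. *Eln*, the gene of elastin, the core of the elastic fibre (ENSMUSG00000029675, chromosome 5, 134702593 to 134747323, minus strand), stood at 7.30, 6.90 and 7.73 at 4 dpi and at 10.01, 10.43 and 10.27 at 6 dpi. All 3 libraries of 6 dpi lay close together and above every library of 4 dpi, whether or not their levels followed GC content. The log2 fold change was 2.90 ± 0.34 (edgeR adjusted p = 0.00075) and 2.47 after GC correction (edgeR adjusted p = 0.00040). *Eln* was also the only gene that passed a test against a log2 fold change of 1 (0.00713% of the genes tested). *Fmod*, fibromodulin, which binds collagen fibrils and is abundant in tendon and cartilage (ENSMUSG00000041559, chromosome 1, 134037254 to 134048277, plus strand), went from 4.99, 5.31 and 5.96 to 8.29, 8.06 and 7.85 (2.6 ± 0.41, edgeR adjusted p = 0.0080). The matrilin *Matn4*, an adaptor protein of the matrix, went from 2.72, 1.98 and 2.59 to 6.22, 6.4 and 4.16. Here replicate 3 lay between the 4 dpi libraries and the other 6 dpi libraries (3.46 ± 0.50, edgeR adjusted p = 0.0042). *C1qtnf3*, a secreted protein with a C1q domain, went from 1.84, 3.22 and 3.01 to 5.90, 5.07 and 5.97, and replicate 3 was the highest of the 6 (2.92 ± 0.54, edgeR adjusted p = 0.034).

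The lists that hold these genes had medians below the changes of their called members. Their counts of called genes stand beside 0.235% of all genes called higher. Of 17 elastic fibre genes only *Eln* rose, 14 were above 0 and the median was 0.61, which was 0.14 after GC correction. The latent TGF-beta binding protein *Ltbp4* had 9.91, 9.93 and 10.91 at 4 dpi and 12, 12.22 and 11.10 at 6 dpi, and the microfibril-associated *Mfap4* had 8.96, 8.80 and 9.47 and then 10.47, 10.48 and 10.04. Neither overlapped between the days and neither passed (1.52 ± 0.37 and 1.24 ± 0.34, edgeR adjusted p of 0.060 and 0.082). Of 20 genes of cartilage and tendon matrix *Fmod* alone rose, 18 were above 0, and the median of 1.03 was the highest of the 29 lists and 0.93 after GC correction. In that list the pentameric matrix protein *Comp* went from 5.91, 6.25 and 5.14 to 7.73, 8.18 and 7.92 without passing (2.12 ± 0.55, edgeR adjusted p = 0.066). The fibrillar collagens had no called gene among 11, with a median of 0.14 that turned to -0.30 after GC correction. *Col1a1* and *Col3a1*, the main collagens of the scar, had log2 fold changes of 0.14 (edgeR adjusted p = 0.86) and -0.53 (edgeR adjusted p = 0.34). Basement membrane genes (23 tested, none called) had a median of 0.67 that was 0.32 after GC correction, and the proteoglycan perlecan, *Hspg2*, had 1.39 ± 0.40 (edgeR adjusted p = 0.089).

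In 20 of the 29 lists no gene passed with all libraries, and their medians ran from -0.61 to 0.67. Among these the resting fibroblast genes (26 tested) had a median of 0.41 and the IGF axis with imprinted growth genes (19 tested) one of 0.39, which were 0.53 and 0.57 after GC correction. Interferon-stimulated genes (35 tested) had -0.29, contractile genes (24 tested) -0.10 and the TGF-beta pathway and response (19 tested) 0.01. The 29 lists held 594 distinct genes tested, of which 2 rose (0.337%, beside 0.235% of all genes) and 10 fell (1.68%, beside 0.278%).

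**Figure D4:**
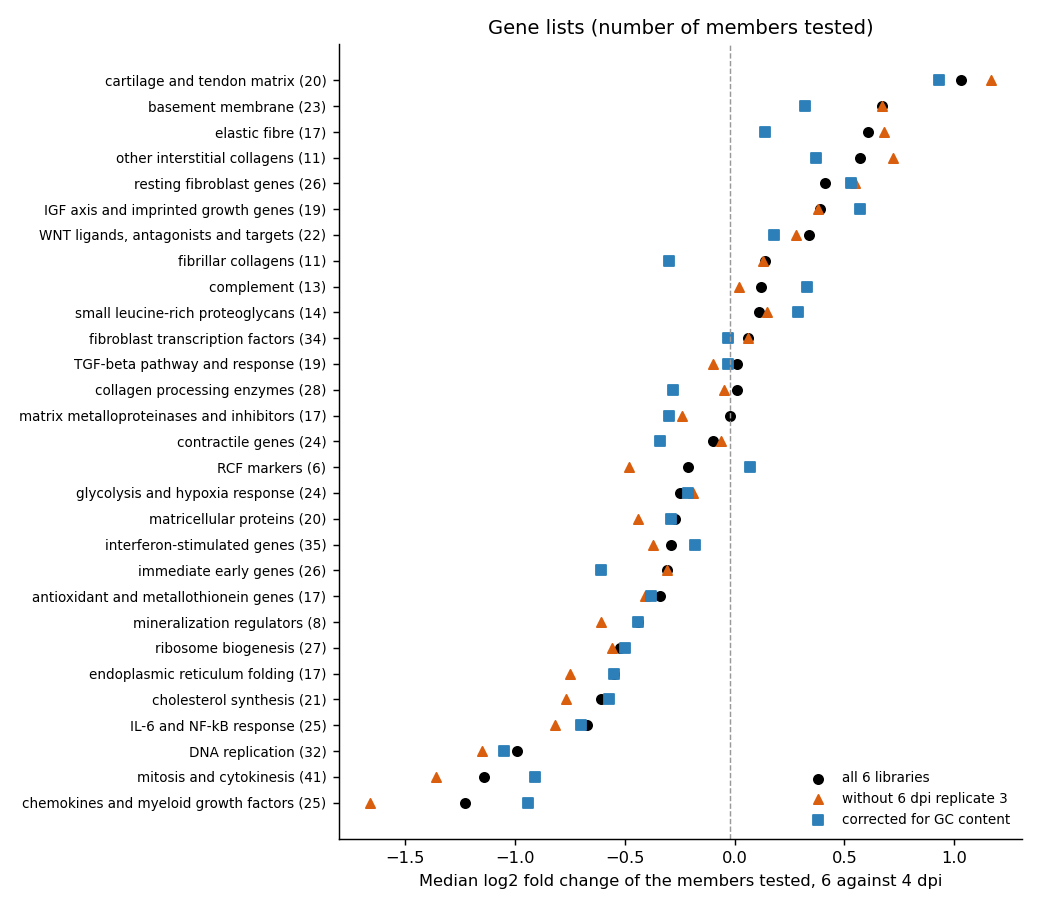
Median log2 fold change of 6 against 4 dpi for each of 29 gene lists (x axis), with the number of members tested in brackets, for all 6 libraries (black), without 6 dpi replicate 3 (orange) and after GC correction (blue). The dashed line is the median of all genes tested, -0.02, and the medians run from -1.23 for chemokines to 1.03 for cartilage and tendon matrix.

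Other genes that rose were spread over several functions. *Clu*, the extracellular chaperone clusterin, went from 7.23, 6.03 and 6.59 to 7.63, 9.43 and 9.17, and was lower in 6 dpi replicate 1 than in replicates 2 and 3 (2.23 ± 0.50, edgeR adjusted p = 0.050 when rounded). *H2-Eb1*, a chain of MHC class II, went from 1.23, 0.95 and 1.99 to 3.76, 4.02 and 3.72 (2.46 ± 0.53, edgeR adjusted p = 0.044), a low level in a multigene family whose members can share reads. Macrophage markers, whose cells also carry MHC class II, summed to 36.0, 57.2 and 39.0 CPM at 4 dpi and to 34.1, 40.0 and 36.3 CPM at 6 dpi, with overlap. The part of RNA from other cells in the *H2-Eb1* result was not tested. *Pou6f1*, a transcription factor, and *Rgs6*, a regulator of G protein signalling, rose by 2.31 ± 0.43 and 3.20 ± 0.67 on the log2 scale (edgeR adjusted p of 0.034 and 0.042). *Abtb1* rose by 2.10 ± 0.47 on that scale (edgeR adjusted p = 0.050 when rounded). The integrin subunit *Itgb5*, the fibrillin-binding *Adamtsl2* and the hormone *Stc2* rose by 1.35 ± 0.26, 1.55 ± 0.30 and 1.69 ± 0.35 (edgeR adjusted p of 0.034, 0.037 and 0.041). None of these genes passed after GC correction, but several kept their size there. *Rgs6* had 3.20, *H2-Eb1* 2.35 and *Stc2* 1.68 (edgeR adjusted p of 0.055, 0.056 and 0.053), while *Itgb5* had 0.94 and *Adamtsl2* 1.09 (edgeR adjusted p of 0.069 and 0.087). Among the 72 called genes 16 lie over a gene on the other strand, *Eln*, *Matn4*, *Ch25h*, *Ptprn*, *Rgs6* and *Fen1* among them, and 1 shares its strand with another gene, and how the counting treated strand is not given in the sources used here.

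*Nppa*, the atrial natriuretic peptide, which cardiomyocytes make, rose from 1.73, 2.45 and 2.69 to 3.76, 5.23 and 5.09 (2.52 ± 0.52, edgeR adjusted p = 0.041). None of the other 9 cardiomyocyte markers tested passed with all libraries in edgeR's test, and all of them had a fold change above 0. With *Nppa* the 10 tested had a median of 1.49, against -0.02 over all genes. Without 6 dpi replicate 3, 4 of the 10 were called higher, against 4.05% of all genes. By DESeq2's test 5 were, beside 442 of 14030 genes, and with GC correction 0 were. Summed without *Nppa*, the markers stood at 47.4, 86.6 and 82.8 CPM at 4 dpi and at 98.6, 244 and 171 CPM at 6 dpi, without overlap. The cells had been passed through a strainer meant to remove cardiomyocytes. The part of cardiomyocyte RNA in the *Nppa* result was not tested. Epicardial markers had 69.3, 42.8 and 93.8 CPM at 4 dpi and 91.1, 539 and 88.1 CPM at 6 dpi, so that 1 library, 6 dpi replicate 2, stood apart. Hemoglobin genes had 271, 727 and 2680 CPM at 4 dpi and 55.8, 186 and 503 CPM at 6 dpi. Endothelial markers summed to 26.3 to 55.8 and 28.5 to 43.7 CPM, and pericyte markers to 94.9 to 179 and 126 to 178 CPM. Neutrophil markers reached 2.78 CPM, lymphocyte markers 0.534 CPM and Schwann cell markers 16.6 CPM at most. *Ptprc* and *Adgre1* had 0 counts in each 6 dpi library. Other macrophage markers had counts there, such as *Cd68* with 160, 116 and 27 and *Lyz2* with 88, 63 and 99. The fibroblast markers summed to 25500 to 39900 CPM at 4 dpi and 18700 to 32900 CPM at 6 dpi, with none of 10 called.

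The 6 RCF markers showed no change that passed. *Cthrc1*, a secreted protein of activated CFs, stood at 9.74, 10.07 and 10.34 at 4 dpi and at 10.15, 9.74 and 10.33 at 6 dpi, a difference of 0.02 ± 0.27 (edgeR adjusted p = 0.97). *Ddah1*, which degrades inhibitors of nitric oxide synthesis, had 6.46, 6.72 and 6.19 and then 7.01, 6.88 and 7.48, the only RCF marker without overlap (0.67 ± 0.27, edgeR adjusted p = 0.19). *Postn* had -0.44 ± 0.34 and *Ptn* 0.23 ± 0.34 (edgeR adjusted p of 0.48 and 0.73). In *Fn1* and *Lox* the 6 dpi libraries did not lie together. *Fn1*, fibronectin, had 11.21, 11.31 and 11.03 at 4 dpi and 10.15, 9.62 and 11.36 at 6 dpi, and *Lox*, which crosslinks collagen and elastin, had 8.95, 8.99 and 8.6 and then 7.45, 7.29 and 9.23. Replicates 1 and 2 lay below 4 dpi in both genes, and replicate 3 above it. With all libraries the differences were -0.62 ± 0.34 and -0.58 ± 0.40 (edgeR adjusted p of 0.31 and 0.43), and without replicate 3 they were -1.28 and -1.49 (edgeR adjusted p of 0.012 and 0.011). The 2 libraries then left are those that followed GC content, and with GC correction as well the differences were -1.54 in *Fn1* and -0.98 in *Lox* (edgeR adjusted p of 0.011 and 0.084).

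Over the earlier days, most of the genes that rose had similar means at 1 to 2 dpi and at 4 dpi. Y-linked genes had 1095 to 1455 counts in 5 of the 6 libraries of 1 and 2 dpi, 84 counts in the sixth and 402 to 795 at 3 and 5 dpi, against 1 to 10 at 4 and 6 dpi. In comparisons of 2, 3 or 5 dpi with 4 or 6 dpi, day and sex therefore cannot be told apart. At 1 dpi the library with 84 counts, replicate 1, also had 1670 counts of *Xist*. Sex was not in the model, so day and sex were not separated there either. Of the 33 genes called higher, 32 had the highest of 5 day means at 6 dpi, and in 26 the mean of 1 and 2 dpi was within 1 (log2) of the 4 dpi mean. *Eln* had means of 6.75, 7.39, 6.94 and 7.31 at 1, 2, 3 and 4 dpi, against 10.24 at 6 dpi. *Fmod* had 3.51, 2.88, 2.58 and 5.42, so that part of its rise lay between 3 and 4 dpi, and *Matn4* had 0.72, -0.12, 1.11 and 2.43. *C1qtnf3* had -0.83, 0.27, -0.38 and 2.69, so that part of its rise also lay between 3 and 4 dpi. The single 5 dpi library, which has no replicate, was nearer to 4 dpi than to 6 dpi for most of the genes called, with 4 of the 33 and 2 of the 39 past the middle between the 2 day means. In that library *Eln* stood at 7.78, *Fmod* at 6.21 and *C1qtnf3*, 1 of those past the middle, at 4.90. Because these genes were chosen for their difference between 4 and 6 dpi, the 6 dpi extreme in these counts is a description.

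The genes that fell had 2 kinds of course. In 26 of 39 the 6 dpi level was below the mean of 1 and 2 dpi by over 1, and in 31 it was the lowest of the 5 days. *Ch25h* went down from 7.59 at 1 dpi through 6.08, 6.22 and 5.52 at 2, 3 and 4 dpi to 3.29 at 6 dpi. *Cxcl5* had 8.24, 6.70, 8.45 and 6.23 before 2.80 at 6 dpi. In 10 genes the 6 dpi level was within 1 of the mean of 1 and 2 dpi, and in 3 it was above it by over 1. *Ccnb2* belonged to these 3, with 1.66, 4.82, 6.46 and 5.88 at 1, 2, 3 and 4 dpi and 4.49 at 6 dpi, and *Pclaf* to the 10, with 2.48, 4.07, 5.56 and 5.71 and then 3.76. Of the 39, 25 had a 3 dpi mean at or above the 4 dpi mean.

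**Figure D5:**
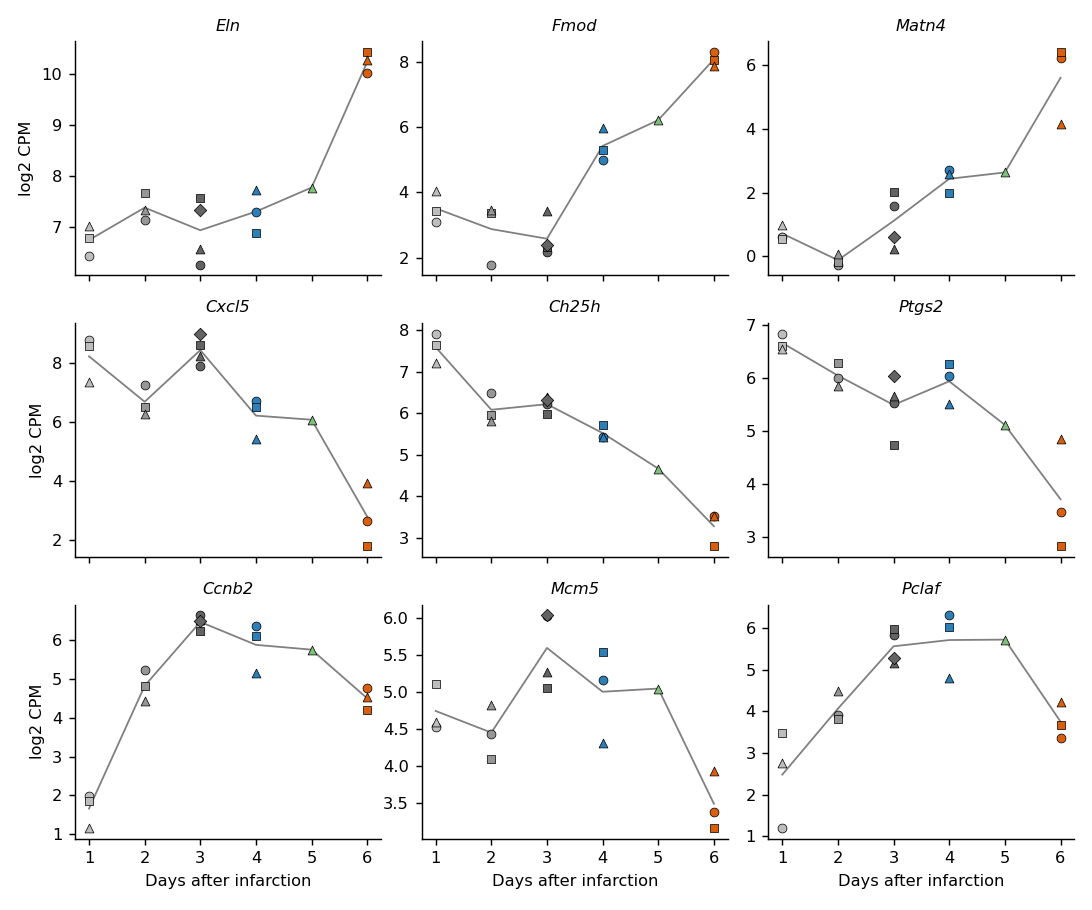
Levels in log2 CPM (y axis) of 9 called genes in each of the 17 libraries by day after infarction (x axis), with 1 symbol per library and a line through the day means; 5 dpi has 1 library. *Eln* lies between 6.75 and 7.39 in its day means up to 4 dpi and at 10.24 at 6 dpi, *Ch25h* goes from 7.59 to 3.29 and *Ccnb2* peaks at 6.46 at 3 dpi.

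Replicate 3 of 6 dpi departed from replicates 1 and 2 by more than most libraries did from their own day. Over 8919 genes with a mean of at least 100 counts, 14.5% differed by more than 1 (log2) from the mean of the other 2 libraries, 789 above it and 508 below it. Among the other 15 libraries of days with 3 or 4 libraries this share ranged from 2.25% to 26.3%. By root mean square difference (0.703) 6 dpi replicate 3 ranked 2 of 16, after 3 dpi replicate 2 with 0.920. Close behind was 4 dpi replicate 3 with 0.672, so a departure of this size was not special to 6 dpi replicate 3. The difference of 6 dpi replicate 3 from the other 2 followed GC content with a rho of -0.54. Its mean Pearson's r was 0.935 with the 4 dpi libraries and 0.924 with its own day, while replicates 1 and 2 had 0.914 and 0.894 with 4 dpi. Replicates 1 and 2 had r = 0.950 with each other. By correlation replicate 3 was thus nearer to 4 dpi than to its own day, and the part of GC content and mitochondrial share in this was not tested.

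The genes that set replicate 3 apart were read by themselves and, being chosen for this difference, carry no test. It was above both other libraries by over 1 in 456 genes and below both by over 1 in 319. The first group had a median GC content of 43.6% and the second one of 56.8%. In the first group replicate 3 lay inside the range of the 4 dpi libraries for 260 genes, with a median difference from the 4 dpi mean of 0.05, against -1.44 for the mean of replicates 1 and 2. In the second it lay inside that range for 142 genes, with medians of -0.21 and 1.12. Among genes with a mean of 100 counts or more at 6 dpi in which replicates 1 and 2 lay within 1 of each other, the 8 largest excesses of replicate 3 were in *Slirp*, which binds mitochondrial RNA, *Hp*, haptoglobin, *mt-Co2*, *mt-Co3*, *Il6*, *Rps15a*, the acute phase gene *Serpina3n* and the proteoglycan *Omd*. *Hp* had 2.63, 3.56 and 5.91 in replicates 1, 2 and 3, beside 6.96, 6.07 and 4.95 at 4 dpi. *mt-Co3*, a subunit of cytochrome c oxidase, had 7.17, 8.03 and 10.24, beside 9.01, 9.16 and 10.06. The 8 largest deficits were in *Actr5*, *Ifitm10*, *Usf1*, *Cep164*, *Zswim4*, *Eef1a2*, *Hist1h2ab* and *Hist1h2ae*. The 63 histone genes tested, a family of near-identical copies whose transcripts mostly lack a poly-A tail, summed to 1990, 2030 and 1340 CPM at 4 dpi and to 3050, 2780 and 1370 CPM at 6 dpi.

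The 1401 genes called without replicate 3 were then read in the library left out. They were chosen for the distance of replicates 1 and 2 from the same 4 dpi libraries, so the values of the library left out depend on that choice and are a description. Its median difference from the 4 dpi mean was 0.45 for the higher genes, against 1.34 for the other 2 libraries, and -0.29 for the lower ones, against -1.43. The higher genes had a median GC content of 56.8% and the lower ones of 44.2%. With GC correction and without replicate 3, 453 genes passed (3.23% of 14025, 148 or 1.06% higher and 305 or 2.17% lower), with medians of 48.1% and 50%.

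The genes added by leaving out replicate 3 were read if they averaged 50 counts or more. They also had no overlap between 4 dpi and 6 dpi replicates 1 and 2, though many overlapped with replicate 3 included. Among these the largest falls were in *Cxcl3*, *Il6*, *Ereg*, *Plac8*, *Nop10*, *Cyp7b1*, *Slirp* and *Rps15a*. The growth factor *Ereg*, epiregulin, had 4.83, 4.37 and 2.85 at 4 dpi and 0.96, -0.62 and 3.01 at 6 dpi. Replicate 3 of 6 dpi was above replicate 3 of 4 dpi there, and the difference was -2.45 with it and -3.96 without it (edgeR adjusted p of 0.076 and 0.0030). Chemokines and myeloid growth factors then had 10 called lower of 25, DNA replication 8 of 32, mitosis and cytokinesis 9 of 41, the IL-6 and NF-kB response 8 of 25 and ribosome biogenesis 6 of 27, with none called higher in these lists and against 5.94% of all genes called lower. With GC correction as well these counts were 5, 5, 5, 8 and 3, against 2.17%. Elastic fibre genes had 4 called higher of 17, basement membrane genes 4 of 23 and resting fibroblast genes 4 of 26, with none lower and against 4.05% of all genes called higher, and with GC correction as well 2, 1 and 2, against 1.06%. By the same rule the largest added rises were in *Col6a5*, *Lgals7*, *Nkain4*, *Upk3b*, *Msln*, *Tesc*, *Crybb3* and ENSMUSG00000071860. *Col6a5*, a collagen VI chain, had -1.90, -2.35 and -1.51 at 4 dpi, near the level of a gene without a count, and 2.07, 4.15 and 3.01 at 6 dpi, so that replicate 3 shared its rise. The mesothelial gene *Msln*, mesothelin, had 4.15, 4.10 and 5.07 and then 5.11, 8.25 and 4.94, and *Lgals7*, *Nkain4* and *Upk3b* were likewise highest in replicate 2, the library with 539 CPM of epicardial markers. Whether that library's epicardial RNA sets these rises was not tested.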

How the data were processed

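CFs were sorted by FACS after digestion, straining to discard cardiomyocytes, red cell lysis and selection with microbeads, and libraries were made by bulk MARS-seq. The authors aligned reads with STAR to mm10 and assigned them to Ensembl genes by featureCounts, and the deposited values are raw counts. The total of each library is only part of what limits its precision. Replicates of 4 and of 6 dpi differed by more than the counting noise of their totals. In vitro transcription pools, sex and the strand setting are not given in the sources used here. Groups follow the labelled day. The members and lists were chosen with earlier results of these data known.

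Counts of all 17 libraries were fitted with edgeR 4.0.16 in R 4.3.3 (TMM, day as a factor with 6 levels, quasi-likelihood F-test, Benjamini-Hochberg adjustment) keeping genes that reached 10 counts in 3 or more libraries. The SE was taken from the log2 fold change and its F statistic. A level is a log2 CPM (prior count 2), not scaled to gene length. Called genes are those with an adjusted p under 0.05. GC correction used a loess curve per library (span 0.4) of the deviation from the mean level on transcript GC content as an offset, and was added after values were seen. Transcript GC content and positions came from GENCODE on GRCm38, and promoters from RefSeq. Alternatives included DESeq2 1.42.0, other filters and scalings, a replicate block and leaving out libraries. The tests were tried on simulated counts without GC dependence or a departing library, so the trial does not cover these features. There edgeR called 23% of genes changed by 1 (log2) and 88% of those changed by 2. It called 3 unchanged genes, and DESeq2 called 27.

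Genes were named by rule. These were the 10 largest rises and falls among called genes averaging 50 counts or more whose days did not overlap. Called members of lists, up to 4 uncalled members of a list by size of change and the RCF markers were named too. So were the 8 largest departures of 6 dpi replicate 3 in each direction. These had a 6 dpi mean of 100 counts or more, with replicates 1 and 2 within 1 of each other. The last were the 8 largest rises and falls added without replicate 3. These averaged 50 counts or more, without overlap between 4 dpi and 6 dpi replicates 1 and 2. *Ptprn*, *Procr*, *Ugcg*, *Has2*, *Aldh1a3*, *Skp2*, *Bcat1*, *Itgb5*, *Adamtsl2*, *Stc2*, *Col1a1* and *Col3a1* were named after their values were seen. Of 750 list entries, 5 matched no gene.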

Additional observations from a re-analysis of the deposited data

How the results depend on the processing

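The count of 72 genes changed was 68 with DESeq2 size factors, 54 with upper-quartile scaling, 68 with a robust spread and 72 without the 5 dpi library. It was 807 by DESeq2's test, 882 with every gene that had a count, 140 with at least 10 counts in every library, 15 with the 4 and 6 dpi libraries alone, 295 without the 3 dpi libraries and 1 against a minimum log2 fold change of 1. Leaving out 1 library gave 3 to 1401 genes. The list genes called, 12 with all libraries, were under the same settings 90, 111, 13, 6, 29 and 1, and 1 to 103 with 1 library left out. The share of higher genes among those called was 45.8% with all libraries, 66.7% with the 4 and 6 dpi libraries alone and 59.7% without the 3 dpi libraries.

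The replicate numbers did not pair the libraries: same-numbered libraries of both days had deviations that correlated at -0.081, -0.038 and -0.056. With a replicate block 28 genes and 6 list genes were called, 57.1% of the 28 higher.

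The following were chosen after seeing the data. DESeq2's test without 6 dpi replicate 3 called 2295 genes and 165 list genes, and edgeR without 6 dpi replicates 1 and 2 called 2 and 1. GC correction gave 10 and 4, and 8 and 4 with the replicate block. With GC correction and without 6 dpi replicate 1, 2 or 3, there were 6, 4 and 453 genes and 2, 1 and 52 list genes. Unlike these, a filter at a mean of at least 10 counts was planned. With it, 21.9% of genes in 6 dpi replicate 3 were over 1 from its day.

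Of 741 values of named genes under alternatives, 477 kept direction and side of the threshold, 250 lost the threshold, 5 gained it and 9 reversed. *Cthrc1* reversed to -0.12 without 4 dpi replicate 1, -0.005 without 6 dpi replicate 1, -0.11 without 6 dpi replicate 3 and -0.07 by DESeq2 without that library, and with 1 library left out it ranged from -0.12 to 0.2. Without 6 dpi replicates 1 and 2, *Postn* was 0.14, *Fn1* 0.18, *Lox* 0.37 and *Ptn* -0.03, and *Postn* was 0.13 with GC correction without 6 dpi replicate 2. The cause of these shifts was not tested.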
